A study of Macaca mulatta with 304 samples.

Results

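The immediate early genes analysed were FOS, FOSB, JUN, JUNB, EGR1, EGR2, EGR3, NR4A1, ATF3 and IER2, taken by their symbols from the table of counts. All 10 were present among its 21070 genes, and all 10 were among the 13751 genes with enough counts to be tested. Whole blood was taken from 28 rhesus macaques (Macaca mulatta, Chinese sub-strain, adults aged 3 to 5 years), and every animal received radiation to the thorax. The 9.8 Gy group had 6 females and 6 males, the 10.7 Gy group had 8 females and 8 males, and there was no group without radiation. Control samples were drawn 2 days before irradiation from 24 of the 28 animals, 12 of each dose, so each animal could be set against its own control. Beside the 24 control samples there were samples of 28 animals from Day 3 to 21 (early), 95 samples after Day 21 up to Day 90 (medium) and 53 after Day 90 (late). The number of animals fell with time, from 28 early to 16 late, and 6 animals (5 of 9.8 Gy and 1 of 10.7 Gy) were sampled to Day 270. Animals were awake when blood was drawn with a lancet, all received tramadol or buprenorphine from Day 4 to Day 25, and animals with fast breathing received dexamethasone. The sample labels do not say which animals received dexamethasone or when, so its part in the values was not tested.

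Immediate early genes are switched on within minutes of a signal without new protein synthesis, because the factors that drive them are already in the cell. Kinase cascades activate serum response factor with its partners, and CREB, at their promoters, and the transcripts are short-lived. FOS and FOSB pair with JUN, JUNB or other partners to form AP-1, which binds target genes. ATF3 is a stress-induced member of the same wider family that often represses, EGR1, EGR2 and EGR3 are zinc finger factors, NR4A1 is an orphan nuclear receptor induced by antigen receptors, and IER2 is a small nuclear protein of less known function. In blood, they respond to activation of leukocytes and also to handling of the sample.

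The promoters of these genes are shown first, because the EGR genes carried a binding sequence that is rare elsewhere. The CArG box, to which serum response factor binds, was searched as CC followed by 6 letters that are A or T and then GG, and the CREB site as TGACGTCA. The search covered the 250 bases before and 50 bases after the start of each gene. Both strands were searched, except for TATAAA, which was searched on the gene's own strand only. The sequences are those of the Mmul_10 assembly with RefSeq genes, 5′ to 3′, 250 bases before the start, and the capitals mark the CArG boxes of EGR1 and EGR2 and the CREB site of IER2. EGR1 has its window at chr6:135873832-135874081, EGR2 at chr9:75153879-75154128 and IER2 at chr19:12746683-12746932, all on the plus strand.
EGR1: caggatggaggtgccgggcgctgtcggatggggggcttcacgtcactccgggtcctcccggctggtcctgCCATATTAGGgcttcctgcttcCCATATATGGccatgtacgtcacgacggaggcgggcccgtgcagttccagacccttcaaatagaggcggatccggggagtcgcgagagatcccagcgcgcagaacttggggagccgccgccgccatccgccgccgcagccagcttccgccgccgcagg
EGR2: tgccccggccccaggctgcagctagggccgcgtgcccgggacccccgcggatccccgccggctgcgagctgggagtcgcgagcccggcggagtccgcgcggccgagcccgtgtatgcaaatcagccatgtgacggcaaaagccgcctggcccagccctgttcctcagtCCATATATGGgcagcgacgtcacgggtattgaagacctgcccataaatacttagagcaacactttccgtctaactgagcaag
IER2: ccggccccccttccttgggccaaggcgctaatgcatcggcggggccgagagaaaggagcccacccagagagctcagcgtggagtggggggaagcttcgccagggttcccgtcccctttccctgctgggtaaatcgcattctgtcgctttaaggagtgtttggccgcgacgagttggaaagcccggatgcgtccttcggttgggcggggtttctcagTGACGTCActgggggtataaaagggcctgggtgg

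EGR1 had 2 CArG boxes, which begin 180 and 158 bases before its start, EGR2 had 1 at 82 bases and EGR3 had 1 at 76 bases. The other 7 genes had none in this window, and 1.2% of 20787 promoters of protein-coding genes had at least 1. IER2 was the only one of the 10 with TGACGTCA, 34 bases before its start, against 2.02% of all promoters. The AP-1 sequence TGACTCA was in none of the 10 and in 3.61% of all promoters. The EGR sequence GCGGGGGCG was in NR4A1 only, against 5.92% of all. TATAAA was in FOSB, JUNB and IER2 and in the FOS window, against 7.27% of all. GGGCGG was in 6 of the 10 and in 48.4% of all promoters. The annotated FOS transcript begins at its start codon, so the FOS window ends within its coding sequence and is no promoter window like the others. A match is a description of letters and no measurement of binding.

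Before irradiation the 10 genes differed widely in level. Values are given as CPM, the counts of a gene scaled by the size of the library with upper quartile factors. Per kilobase of annotated exon, the control mean was 114.2 CPM for FOS (SD 45.1, n = 24), 111.6 for JUNB (SD 33.2) and 94.0 for IER2 (SD 16.0). The annotated FOS transcript of 1143 bases holds coding sequence only, so its level per length is too high beside the others. JUN followed with 8.01 CPM per kilobase, NR4A1 with 4.19, FOSB with 2.16, ATF3 with 1.31, EGR1 with 1.15, EGR3 with 0.968 and EGR2 with 0.677. FOS, JUNB and IER2 did not differ beyond their spread, and the same holds for ATF3, EGR1 and EGR3. The EGR genes rest on few reads, with a median of 30 counts per sample for EGR1, 33 for EGR3 and 21 for EGR2, against 2192.5 for JUNB and 1447 for IER2.

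The genes lie on several chromosomes of Mmul_10. FOS is at chr7:137394931-137397381, JUNB at chr19:12369848-12371689, IER2 at chr19:12746933-12748795 and FOSB at chr19:45527685-45534869, all on the plus strand. JUN is at chr1:165651412-165653728 and ATF3 at chr1:70055871-70109651, also on the plus strand. EGR1 is at chr6:135874082-135877338, EGR2 at chr9:75154129-75158502 and NR4A1 at chr11:51642226-51666836 on the plus strand, and EGR3 is at chr8:22873159-22878972 on the minus strand.

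Sequencing depth differed between the time windows. Counts on genes ran from 2840219 to 23638161 over the samples, and the window medians were 11697185.5 for controls, 11789708.5 early, 6905391 medium and 6935207 late. The library names end in a number that is 0 or falls into a low or a high range, and the sources used here do not explain it. Of the controls 20 were in the low range and 4 were 0. Early samples had 100 libraries in the low range, 8 in the high range and 24 numbered 0, medium samples 0, 19 and 76, and late samples 0, 7 and 46. Time after Day 21 and library number therefore mostly cannot be told apart against the control. On Day 40, where 11 libraries of the high range and 13 numbered 0 could be compared, edgeR called 0 of 13751 genes (955 at an unadjusted p under 0.05, DESeq2 called 1), none of them among the 10. The blood markers were present as the tissue label says: all 13 neutrophil, 11 monocyte, 11 T cell, 10 B cell, 10 NK cell, 8 platelet and 12 red cell markers that are in the table passed the filter on low counts.

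Each animal was first compared with its own control over Day 3 to 21, which asks how blood changed in the weeks after irradiation. A gene was called where it changed 1.5-fold or more and edgeR's quasi-likelihood test gave an adjusted p no higher than 0.05. Of the 10 genes 2 were called, ATF3 up and EGR3 down, and 7.53% of all 13751 genes were called (5.79% up and 1.75% down). The median log2 fold change was 0.15 over the 10 genes and -0.02 over all genes. Values for these windows are CPM of the counts summed per animal.

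ATF3 rose early in every animal. The control level was 4.87 CPM at the lowest, 9.01 at the median and 18.5 at the highest, and the early level was 8.69, 19.2 and 44.7 CPM. The ranges overlapped, but each of the 24 animals was higher than its own control. The mean went from 10.2 ± 3.72 CPM to 20.1 ± 8.37 CPM (SD, n = 24), a log2 fold change of 0.96 (SE 0.08, adjusted p 3.2e-10). Leaving out any 1 animal kept the value between 0.92 and 1.00.

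EGR3 fell early. The control level was 1.29 CPM at the lowest, 4.62 at the median and 8.71 at the highest, and the early level was 1.11, 2.53 and 5.85 CPM. It was lower in 21 and higher in 3 of 24 animals. The mean fell from 4.83 ± 2.20 CPM to 2.96 ± 1.25 CPM (SD, n = 24), a log2 fold change of -0.69 (SE 0.12, adjusted p 2.71e-05). EGR3 levels on Day 21 were 2.78 ± 1.17 CPM in 12 libraries of the low range, 3.05 ± 1.17 in 8 of the high range and 5.24 ± 1.92 in 8 numbered 0. All 12 low-range samples of that day were of 9.8 Gy and the other 16 of 10.7 Gy, so library number, dose and animal cannot be told apart there. Controls numbered 0 already had 5.81 ± 2.04 CPM of EGR3 (n = 4), against 4.38 ± 2.08 CPM in the low range (n = 20). With only libraries of the same range as the control, the early log2 fold change of EGR3 was -0.72 (adjusted p 2.76e-05).

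JUN, the main partner of FOS in AP-1, was lower early in 23 of 24 animals but stayed under a fold of 1.5. Its mean was 19.4 ± 3.35 CPM in controls and 14.4 ± 1.58 CPM early (SD, n = 24), with a log2 fold change of -0.41 (SE 0.05, adjusted p 7.6e-08). FOSB (0.24), NR4A1 (0.34), EGR1 (0.33) and IER2 (-0.17) also passed the adjusted p and not the fold. FOS (-0.18, adjusted p 0.162), JUNB (0.13, 0.12) and EGR2 (0.18, 0.165) did not pass the adjusted p.

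**Figure D1:**
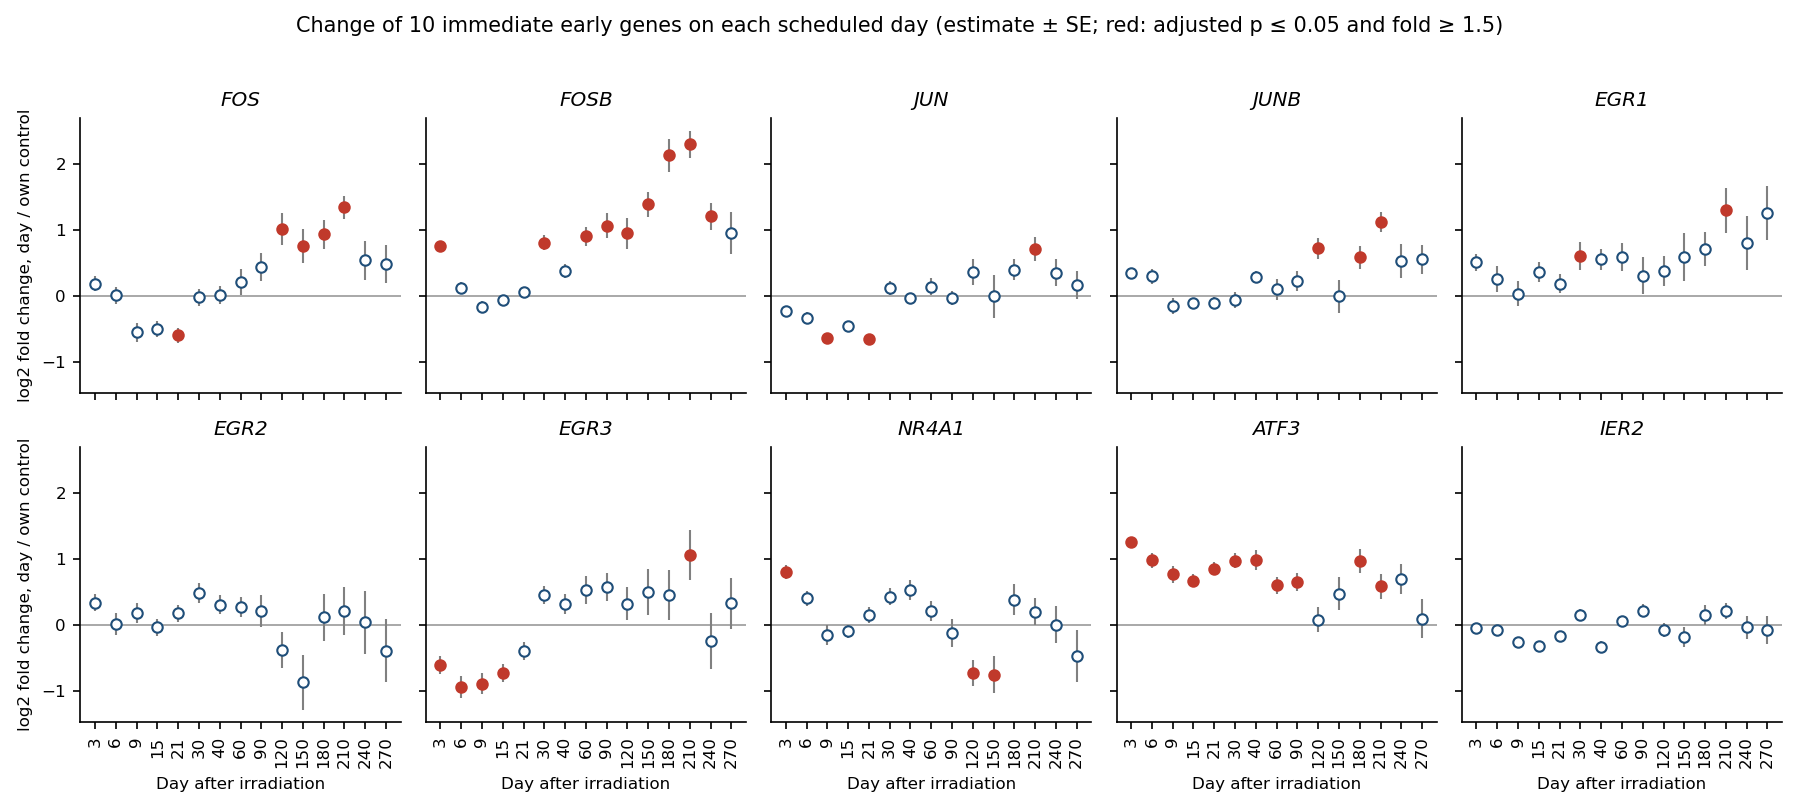
Log2 fold change of each gene on each scheduled day against the control of the same animals (y axis), by day after irradiation (x axis, days not to scale). Points are edgeR estimates with SE bars, and filled red points were called. ATF3 is highest on Day 3 (1.26) and FOSB on Day 210 (2.30), and EGR2 and IER2 have no filled point.

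The scheduled days show when these changes took place. Over 15 days and 10 genes, 41 of 150 pairs of gene and day were called. The share of all genes called on a day ran from 0.00727% on Day 270 to 31.8% on Day 120. On Day 3, 4 genes were called, with 11.5% of all genes called (6.89% up and 4.62% down): ATF3, NR4A1 and FOSB up and EGR3 down. ATF3 was 23.8 ± 9.80 CPM against 9.71 ± 3.56 CPM in controls (SD, n = 24), with a log2 fold change of 1.26 (SE 0.09, adjusted p 1.06e-12) and a rise in 24 of 24 animals. FOSB went from 11.96 ± 2.81 to 20.4 ± 5.39 CPM, also in 24 of 24 animals (log2 fold change 0.76, SE 0.07, adjusted p 1.24e-10). NR4A1 went from 12.8 ± 5.54 to 22.97 ± 11.1 CPM, in 21 of 24 animals (0.81, SE 0.11, adjusted p 3e-07). EGR3 on Day 3 was -0.60 and close to the fold limit, and it was not called with TMM (-0.56), DESeq2 (-0.55), limma (-0.55) or without the animal block (-0.57). Of these 3 genes, only ATF3 was still called on Day 6, when 11.5% of all genes were called (6.04% up and 5.48% down).

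From Day 9 to 21 the low points of JUN and FOS came. JUN was called lower on Day 9, where 7.58% of all genes were called (5.15% up and 2.43% down), and on Day 21, where 10.4% were (7.65% up and 2.73% down). On Day 21 JUN was lower in 24 of 24 animals, at 11.8 ± 2.21 CPM against 18.5 ± 3.20 CPM (SD), with a log2 fold change of -0.65 (SE 0.07, adjusted p 1.27e-08). FOS was called lower on Day 21, at 86.002 ± 37.8 CPM against 130.6 ± 51.5 CPM, and was lower in 20 of 24 animals (-0.59, SE 0.12, adjusted p 0.000115). With library range as a covariate both Day 21 calls were lost, with JUN at -0.57 (adjusted p 6.34e-06) and FOS at -0.48 (adjusted p 0.0211), both under the fold, and FOS was also under it with a minimum of 10 counts (-0.58). EGR3 was called lower on Day 6, 9 and 15 as on Day 3, with its lowest value of -0.93 (SE 0.16) on Day 6. On Day 15, where 6.01% of all genes were called (5.11% up and 0.894% down), ATF3 up and EGR3 down were the called genes of the 10.

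On Day 30 the picture changed. FOSB was called higher again, at 21.98 ± 8.06 CPM in 24 animals, 22 of them above their control (log2 fold change 0.82, SE 0.11, adjusted p 3.76e-06), and EGR1 was called higher (0.61, SE 0.21, adjusted p 0.0269). ATF3 was still higher, so 3 of the 10 were called, with 5.9% of all genes (4.57% up and 1.33% down). EGR3, low until Day 15, was 6.35 ± 2.89 CPM on Day 30 with a log2 fold change of 0.47, not called. All 28 libraries of Day 30 are numbered 0, and most of their controls are not. In the 4 animals whose control is also numbered 0, ATF3 was called (1.12, adjusted p 0.0258). FOSB (0.26, adjusted p 0.595) and EGR1 (-0.52, adjusted p 0.477) were not. These 4 animals were all of 10.7 Gy, so this fit differs from that of the 24 animals in dose and number as well. With library range as a covariate EGR1 was 0.19 (adjusted p 0.733).

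From Day 40 to 90 the genes called in the main fits were ATF3 and FOSB. On Day 40, with 6.92% of all genes called (4.07% up and 2.85% down), only ATF3 was called, at 19.6 ± 8.89 CPM (SD, n = 24) and higher in 22 of 24 animals (log2 fold change 0.99, adjusted p 9.85e-06). In the 4 animals with libraries of the control's range on Day 40, all of 10.7 Gy, ATF3 was 1.24 (adjusted p 0.067). FOS (0.94) and JUNB (0.71) were called in its place. On Day 60, with 4.23% called (2.31% up and 1.92% down), ATF3 was 0.60 and FOSB 0.91. On Day 90, with 7.06% called (3.87% up and 3.19% down), ATF3 was 0.65 and FOSB 1.07, and FOSB was higher in 15 of 15 animals. Other settings added calls, all higher. EGR1 was called on Day 40 with TMM (0.61) and DESeq2 (0.62). On Day 60 EGR1 was called with TMM and DESeq2 (0.63 each), a minimum of 10 counts (0.59) and no animal block (0.74). DESeq2 also called EGR3 on Day 60 (0.59) and Day 90 (0.61). With library range as a covariate JUNB was called on Day 40 (0.64), and FOS (0.91) and JUNB (0.69) on Day 90.

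**Figure D2:**
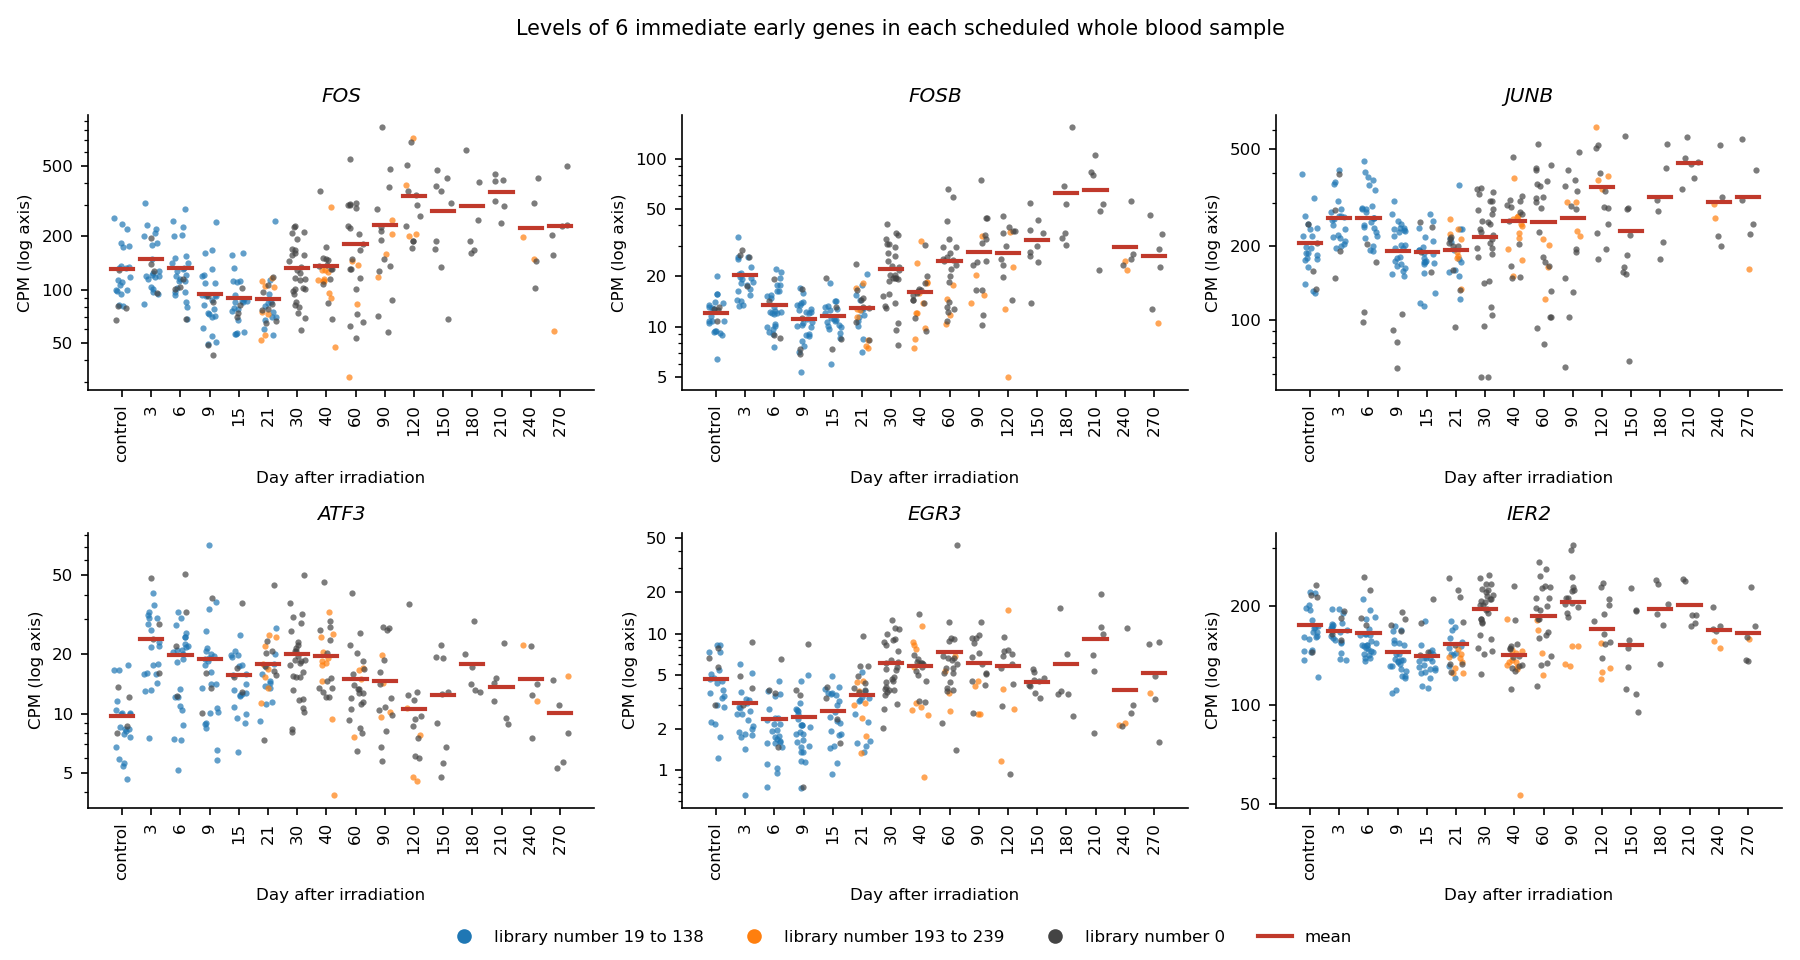
CPM on a log axis (y) of 6 genes in each control and scheduled sample by day (x axis), with 1 point per sample coloured by the number at the end of its library name and a red line at the mean. FOS and FOSB have their highest means on Day 210 (354 and 65.4 CPM), ATF3 on Day 3 (23.8 CPM), and IER2 has no day that was called.

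After Day 21 up to Day 90 the same comparison called 2 of the 10 genes, ATF3 and FOSB, both up, with 5.75% of all genes called (4.48% up and 1.27% down). These window comparisons share the control samples, so they are not independent of each other. ATF3 was 18.1 ± 5.78 CPM against 10.2 ± 3.73 CPM (SD, n = 24), higher in 24 of 24 animals, with a log2 fold change of 0.84 (adjusted p 1.08e-08). FOSB was 6.69 CPM at the lowest, 12.6 at the median and 20.9 at the highest in controls, and 12.01, 20.8 and 47.2 CPM in this window. It was higher in 23 of 24 animals, with a log2 fold change of 0.82 (adjusted p 2.28e-07). In the 4 animals with libraries of the control's range, all of 10.7 Gy, ATF3 (1.03, adjusted p 0.0324) and FOS (0.77, adjusted p 0.014) were called. FOSB was 0.59 (adjusted p 0.182) in them. EGR1 was 0.57 (adjusted p 0.00508), under the fold, and it was called with TMM scaling (0.60) and DESeq2 (0.61). EGR1 was -0.22 (adjusted p 0.774) in the 4 animals with libraries of the same range.

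After Day 90, 5 of the 10 genes were called, all up: FOSB, FOS, EGR3, EGR1 and JUNB. In this window 32.5% of all genes were called, 14% up and 18.5% down. The median log2 fold change was 0.52 over the 10 genes and -0.13 over all genes, and the latter was -0.03 with TMM and -0.01 with DESeq2 size factors. The 14 animals with a control and a late sample entered.

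FOSB had the largest change of the 10. Its control level was 9.07 CPM at the lowest, 12.04 at the median and 19.7 at the highest, and the late level was 10.96, 30.99 and 77.2 CPM. All 14 animals were higher than their own control, though 1 of 10.7 Gy by little. The mean was 12.4 ± 2.98 CPM in controls and 33.1 ± 15.0 CPM late (SD, n = 14), with a log2 fold change of 1.34 (SE 0.15, adjusted p 4.4e-06).

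FOS was 79.2 CPM at the lowest, 133.2 at the median and 250.1 at the highest in controls, and 154, 265 and 480 CPM late. It was higher in 13 of 14 animals, with a mean of 148 ± 57.7 CPM before and 281 ± 98.9 CPM late (SD), and a log2 fold change of 0.95 (adjusted p 0.000983). The groups overlapped, and the animal with the highest control was the one that was lower late. JUNB went from 211 ± 72.3 to 311 ± 81.5 CPM and was higher in 13 of 14 animals, with a log2 fold change of 0.59 (adjusted p 0.000787). JUNB lay at the fold limit, and its call was lost in 6 of 14 fits that left out 1 animal (0.53 to 0.66), without the animal block (0.56), with a minimum of 10 counts (0.56) and with limma (0.57).

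EGR1 rose from 2.62 ± 0.88 to 4.13 ± 1.11 CPM (SD, n = 14), in 13 of 14 animals, with a log2 fold change of 0.69 (adjusted p 0.00484). Without animal B2502 it was 0.58 and under the fold. EGR3 was 4.08 ± 2.18 CPM in controls and 6.63 ± 3.64 CPM late, in 12 of 14 animals, with a log2 fold change of 0.71 (adjusted p 0.0138). Without animal B1002 EGR3 was 0.57 and under the fold. In 1 fit over all samples with library number range as a covariate, EGR1 was 0.45 (adjusted p 0.095) and EGR3 0.18 (adjusted p 0.502), so both calls were lost. In that fit FOS was 1.43, FOSB 1.25 and JUNB 1.06, and JUN (0.67) and ATF3 (0.60) were called too. That fit took each draw of an animal as a sample of its own, so its adjusted p count repeated draws. A late fit within the range of the control was not possible, since 1 animal has such libraries.

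Among the other genes, JUN (0.46) and ATF3 (0.44, higher in 11 of 14 animals) passed the adjusted p late and not the fold. NR4A1 was 10.9 ± 5.72 CPM in controls and 7.48 ± 3.47 CPM late (SD, n = 14), lower in 10 of 14 animals, with a log2 fold change of -0.52 (adjusted p 0.0216) under the fold. EGR2 was -0.30 (adjusted p 0.283) and IER2 0.01 (adjusted p 0.944), with 171.2 ± 33.98 CPM in controls and 170.4 ± 22.03 CPM late.

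**Figure D3:**
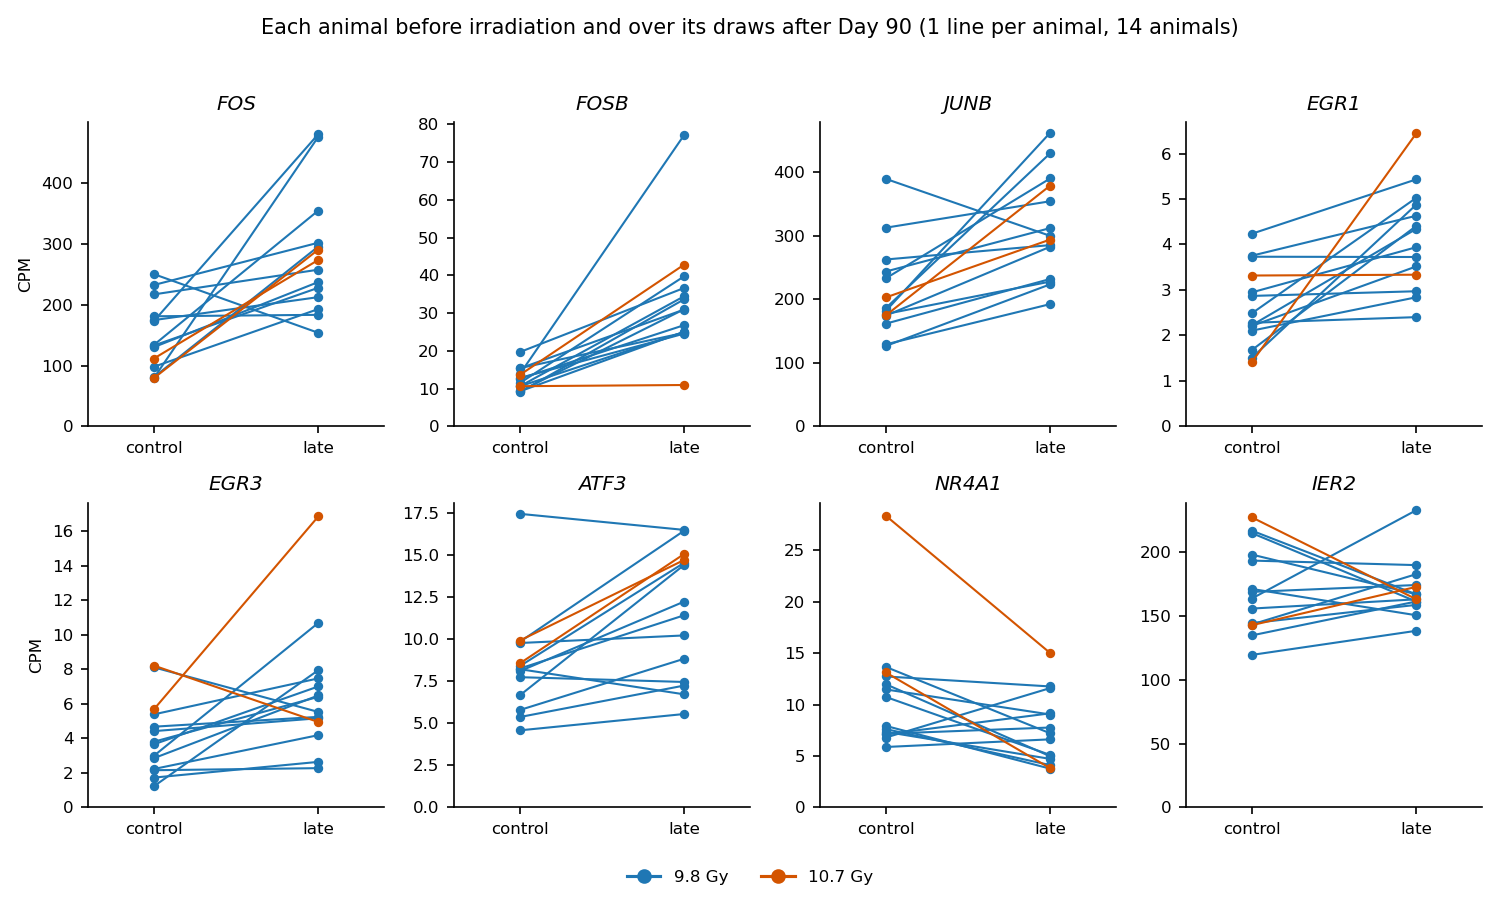
CPM (y axis, from 0) of 8 genes in the control and in the summed draws after Day 90, with 1 line per animal (14 animals, blue 9.8 Gy, orange 10.7 Gy). FOSB ends higher in 14 of 14 animals and FOS, JUNB and EGR1 in 13, while NR4A1 ends lower in 10.

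The late days differed among themselves. On Day 120, with 31.8% of all genes called (12.7% up and 19.1% down), FOS (1.02), FOSB (0.96) and JUNB (0.73) were called higher and NR4A1 (-0.73) lower. NR4A1 was lower in 11 of 12 animals on that day, at 6.65 ± 2.85 CPM against 11.1 ± 6.17 CPM (SD). On Day 150, with 31.5% of all genes called (12% up and 19.5% down), FOS (0.76) and FOSB (1.396) were higher and NR4A1 (-0.75) lower. The Day 150 call of NR4A1 was lost with TMM (-0.68, adjusted p 0.0646), limma (-0.69), no filter (-0.65) and no animal block (-0.58, adjusted p 0.27). On Day 180, with 18.7% of all genes called (8.81% up and 9.86% down), FOSB was 2.14 and FOS, JUNB and ATF3 were called higher as well. JUNB on Day 180 was not called with a minimum of 10 counts (0.58) or without the block (0.64, adjusted p 0.102).

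Day 210 had the highest mean of FOS, FOSB, JUN, JUNB and EGR3. There 7 of the 10 genes were called, all up, with 29.8% of all genes called (12.8% up and 16.9% down): FOSB, FOS, EGR1, JUNB, EGR3, JUN and ATF3. In the 6 animals FOSB was 53.7, 82.8, 21.8, 105.4, 48.99 and 79.5 CPM on Day 210, against 12.99, 11.6, 9.40, 14.02, 10.7 and 13.8 CPM in their controls. The groups did not overlap. FOS in the same animals was 316.8, 411.6, 236.5, 451.1, 295.6 and 415.2 CPM, against 99.2, 134.6, 183.3, 175.1, 131.9 and 112.9 CPM. Again the groups did not overlap, and the log2 fold change was 2.30 for FOSB (SE 0.21, adjusted p 5.41e-05) and 1.35 for FOS (SE 0.18, adjusted p 0.000294). Some of the 7 calls depended on the fit: ATF3 was lost with a minimum of 10 counts (0.56) and without the block, EGR3 with limma (1.03, adjusted p 0.0577) and without the block, and EGR1 with library range as a covariate (0.72, adjusted p 0.0777). JUNB was 437 ± 74.1 CPM and its log2 fold change 1.13 (SE 0.15, adjusted p 0.00032).

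On Day 240, with 6.76% of all genes called (3.26% up and 3.51% down), FOSB alone of the 10 was called (1.22, adjusted p 0.00831). On Day 270 edgeR called 1 gene of 13751 (0.00727%) and none of the 10, while DESeq2 called 2344 genes, 3 of the 10 among them. The same 6 animals were also fitted for every day, and the share of all genes called ran from 0% (Day 90) to 29.8% (Day 210). FOSB was called at Day 3, 150, 180, 210 and 240. FOS was called lower at Day 21 and higher at Day 120, 180 and 210. ATF3 was called at Day 3, 15, 21, 40, 180 and 210. FOSB had a log2 fold change of 1.34 at Day 90, where no gene was called, and 1.22 at Day 240, where it was called. A day missing from these lists is therefore no sign that the gene was unchanged. In the 6 animals FOSB ranged from 9.40 to 14.02 CPM in controls, from 7.69 to 13.7 on Day 9, from 30.4 to 154 on Day 180 and from 10.5 to 46.2 on Day 270.

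The control and 15 days were ordered by mean for each gene. Ordering puts similar means side by side, so small gaps between neighbours follow from it and do not show that a gene was unchanged. The SD used is that between animals and leaves out the pairing, and the late means rest on fewer animals. Of 15 neighbouring pairs per gene, 1 pair of FOSB and 1 of JUNB were apart by more than the smaller SD, and none for the other 8 genes. ATF3 and EGR1 had their lowest mean in the control. The highest mean exceeded the lowest 5.93-fold for FOSB, 4.01-fold for FOS, 3.87-fold for EGR3 and 1.46-fold for IER2. EGR2 was highest on Day 30 (3.21 ± 1.07 CPM) and lowest on Day 150 (1.10 ± 0.59 CPM), and it passed the thresholds on no day in the main fits. It was lower than the control in 8 of 9 animals on Day 150. With library range as a covariate EGR2 was called lower that day (-1.06, adjusted p 0.00173), in a fit that counts repeated draws.

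The late and early samples were also compared within each animal, with no control sample in the fit. In 16 animals, 5 of the 10 genes were called, with 32.2% of all genes (12% up and 20.2% down): EGR3 (1.34), FOS (1.33), FOSB (1.26) and JUN (0.86) were higher late, and NR4A1 (-0.79) was lower. The SE was 0.10 to 0.19 and each adjusted p was 0.000359 or less. JUNB (0.47), IER2 (0.22), ATF3 (-0.41) and EGR2 (-0.43) passed the adjusted p under the fold, and EGR1 (0.28) had an adjusted p of 0.126. All 5 calls were kept when any 1 of the 16 animals was left out, which does not test library number. Most early libraries were of the low range and no late library was. Time and library number therefore mostly cannot be told apart in this fit either. With library range as a covariate, the late change of EGR3 from control was 0.18 and not called, while FOS, FOSB and JUN were called in that fit.

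The doses were compared early by the difference of the change from control. Here edgeR called 0 of 13751 genes (761 at an unadjusted p under 0.05), and DESeq2 also called 0. FOS had the largest difference of the 10, 0.55 higher at 10.7 Gy (SE 0.19, adjusted p 0.86). Control FOS differed between the dose groups, at 159 ± 58.2 CPM in the 9.8 Gy animals and 102.1 ± 19.99 CPM in the 10.7 Gy animals (SD, n = 12 each). ATF3 differed by 0.03 (SE 0.17) and EGR3 by -0.18 (SE 0.24). The change from control differed between the sexes in 0 of 13751 genes by edgeR and by DESeq2 (edgeR gave 0.894% of genes an unadjusted p under 0.05), and the largest difference of the 10 was EGR1, 0.45 lower in males (SE 0.24, adjusted p 1).

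On single days up to Day 90, edgeR called a difference in level between the doses for the 10 genes on Day 60 and on no other day. DESeq2 also called NR4A1 on Day 15 (0.79 higher at 10.7 Gy, adjusted p 0.0282). On Day 60 18% of all genes were called (9.24% up and 8.73% down), and 2 of the 10 were, both higher at 10.7 Gy. JUNB was 167 ± 79.5 CPM at 9.8 Gy and 337 ± 108.5 CPM at 10.7 Gy (SD, n = 12 each), with a log2 difference of 1.01 (SE 0.23, adjusted p 0.00381). The 9.8 Gy samples were 79.2 to 315 CPM and the 10.7 Gy samples 167 to 526 CPM, so the groups overlapped. EGR1 was 2.95 ± 1.41 and 5.72 ± 3.32 CPM, with a log2 difference of 0.94 (SE 0.32, adjusted p 0.0286). JUN was not called in the main fit. It was called higher at 10.7 Gy with TMM (0.63, adjusted p 0.0261), DESeq2 (0.65, adjusted p 0.0136) and no minimum of counts (0.60, adjusted p 0.0369). In libraries numbered 0 only (8 and 12 samples), JUNB differed by 1.04 (adjusted p 0.0179) and EGR1 by 1.13 (adjusted p 0.0477), with 15.1% of all genes called. On the same day 10 of 13 neutrophil markers and 7 of 11 monocyte markers were called higher at 10.7 Gy. The summed neutrophil markers ranged from 704 to 6424 CPM at 9.8 Gy and from 2699 to 20899 CPM at 10.7 Gy, and their part in the difference was not tested. Day 3, 6, 9, 15, 30, 40 and 90 had 0 genes called by edgeR (780 to 2241 at an unadjusted p under 0.05, and up to 68 by DESeq2), and Day 21 had 21 genes (0.153%), none of the 10.

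The 8 draws between scheduled days, from 4 animals of each dose, were compared with the draw before. No gene was called by edgeR or DESeq2 (248 at an unadjusted p under 0.05 by edgeR). ATF3 was lower in 7 of 8 animals, at 10.8 ± 4.75 CPM against 14.1 ± 7.001 CPM (SD), with a log2 difference of -0.36 (SE 0.18, adjusted p 1). FOS was higher in 4 and lower in 4 of the 8.

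Other genes of the same kind were counted from lists written for this work. For comparison, 7.53% of all genes were called early, 5.75% in the medium window and 32.5% late. Among 12 other AP-1 family genes, 1 was called early, BATF3 (0.67), and late 5 were higher, led by JDP2 (1.54), BATF2 (0.99) and MAFG (0.66), and MAFK (-0.61) was lower. Among 25 other early response genes, 4 were called early, all up, led by KLF4 (1.37), HBEGF (0.85) and GADD45A (0.83). KLF4 is a zinc finger factor of monocytes and other cells, and HBEGF is a growth factor ligand. In the medium window 5 of the 25 were up, led by KLF4 (1.12), IER3 (1.10) and HBEGF (0.83). Late, 15 of the 25 were up and 3 down. PTGS2, the inducible cyclooxygenase (1.71), CXCL8, a neutrophil attractant (1.43), and RHOB, a small GTPase (1.39), rose most, and MYC (-0.63), SIK1 (-0.62) and NR4A2 (-0.60), a close relative of NR4A1, fell. The median of the 25 was 0.84 late against -0.13 over all genes.

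Genes that end such responses were counted next, beside the same shares of all genes (7.53% early, 5.75% in the medium window and 32.5% late). Of 13 feedback repressors, SPRED1 (0.64) and DUSP6 (0.59) were called higher early, none in the medium window, and late DUSP1 (1.45), ZFP36 (0.97), DUSP6 (0.73) and ZFP36L1 were higher and DUSP2 (-0.96) lower. DUSP1 and DUSP6 inactivate MAP kinases, and ZFP36 promotes decay of short-lived transcripts. Of 19 upstream kinases and factors, none was called early or in the medium window, and late MAPK3 (0.83) and MAPK14 (0.82) were higher and MRTFB (-0.83) lower. Of 10 heat shock genes, none was called early or in the medium window, and HSPH1 (-0.98) and HSPD1 (-0.60) were lower late. The late median log2 fold change was 0.01 over the repressors, -0.04 over the upstream genes and -0.31 over the heat shock genes. Over all genes it was -0.13.

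Markers of blood cells moved in the same windows, in which 7.53% (early), 5.75% (medium) and 32.5% (late) of all genes were called. Early, 6 of 11 monocyte markers, 5 of 8 platelet markers and 11 of 12 red cell markers were called higher, 9 of 10 B cell markers lower, and no T cell marker. In the medium window 5 of 13 neutrophil and 5 of 11 monocyte markers were higher and 5 of 10 B cell markers lower. Late, 11 of 13 neutrophil, 4 of 11 monocyte and 8 of 8 platelet markers were higher, and 8 of 11 T cell, 10 of 10 B cell and 2 of 10 NK cell markers lower. The summed neutrophil markers ranged from 957 to 8993 CPM in controls (median 3434) and from 1770 to 18943 CPM late (median 6965). The summed T cell markers ranged from 1275 to 3036 CPM in controls and from 384 to 2602 CPM late, and no sample was at 0. Of 11 genes that respond to glucocorticoids, none was called early, IL1R2 (0.80) in the medium window, and 7 late, all up, led by IL1R2 (3.20), ZBTB16 (2.08) and CD163 (1.62). In whole blood, fewer cells of a type and less RNA per cell cannot be told apart, and the part of cell makeup or of steroid in the changes of the 10 genes was not tested.

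The 10 genes fell into different patterns across samples. Log2 CPM was centred on each animal's mean, and Pearson's r was computed over all samples, which share animals and library ranges. Of 45 pairs, r ran from -0.23 to 0.70 with a median of 0.12, 7 pairs were above 0.5 and 12 below 0. The highest values were FOS with JUNB (0.70), FOS with FOSB (0.70), FOS with JUN (0.67), FOSB with JUN (0.62) and JUN with JUNB (0.62). NR4A1 with ATF3 (0.54) and FOSB with EGR3 (0.54) were the other pairs above 0.5, and FOS with EGR2 (-0.23) was the lowest. In the 150 libraries numbered 0, the pairs ran from -0.28 to 0.73.

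Beside the marker lists, FOS (r 0.80), JUNB (0.72) and JUN (0.59) went with the neutrophil markers, and FOSB less (0.37). ATF3 (-0.18), NR4A1 (-0.23) and EGR2 (-0.25) had values below 0 there. With T cell markers, FOS had -0.61 and NR4A1 0.44, and with monocyte markers, ATF3 and JUNB had 0.43 each. With the glucocorticoid-responsive genes, FOS had 0.73 and JUN 0.62. In the libraries numbered 0, FOS had 0.80 with neutrophil markers and ATF3 had 0.25 with monocyte markers. These are descriptions over samples that share animals.

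**Figure D4:**
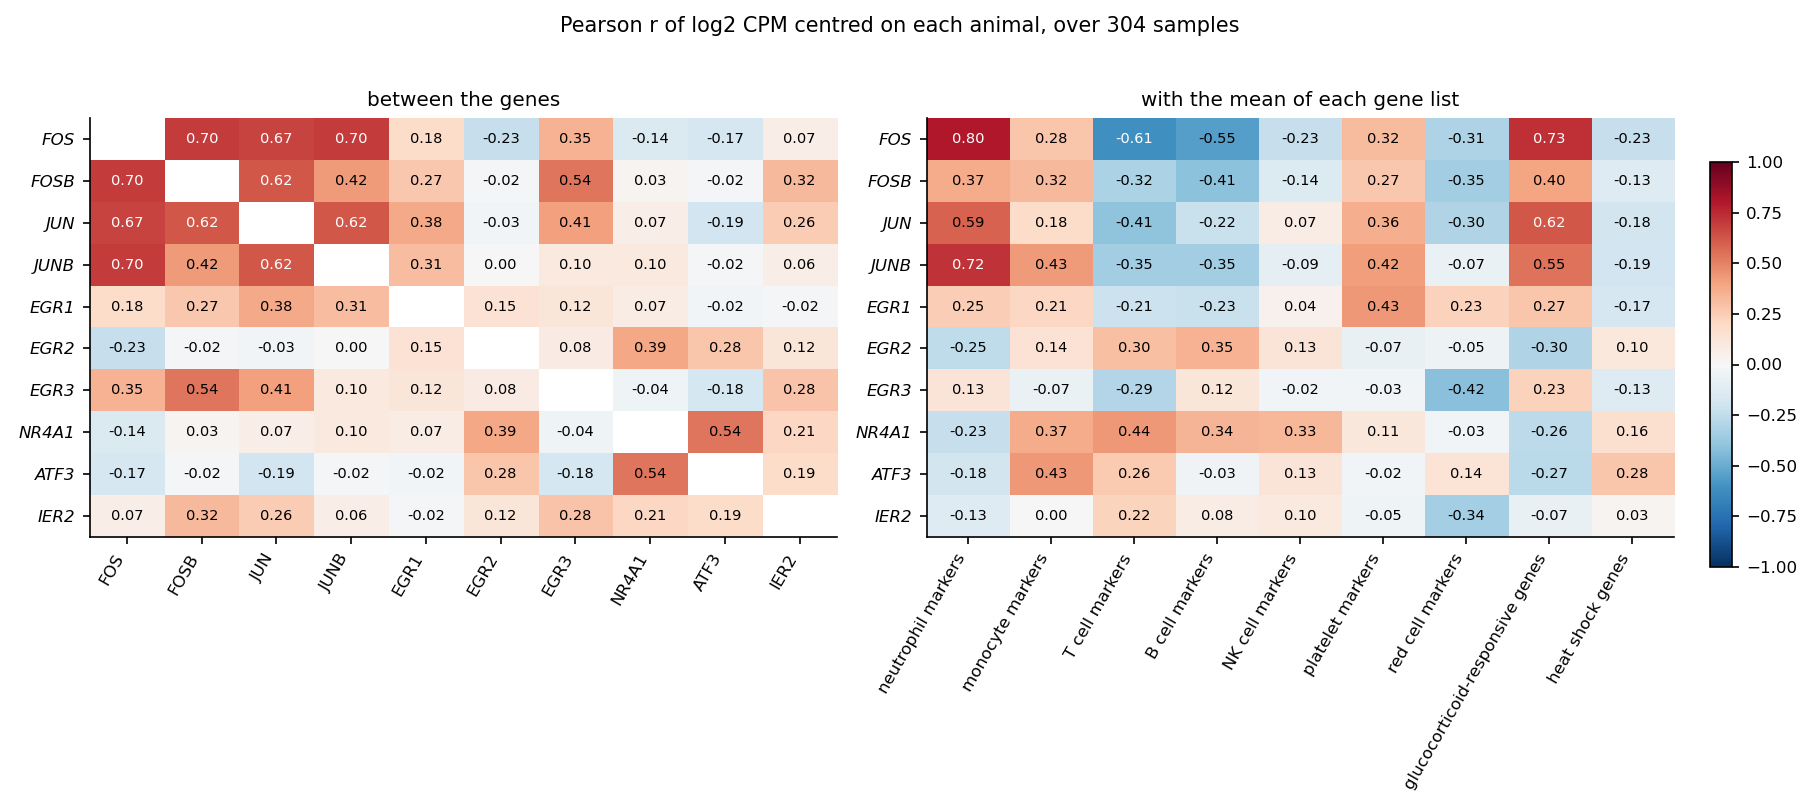
Pearson's r (colour and number) between the 10 genes (left) and of each gene with the mean z-score of each list (right), from log2 CPM centred on each animal, over all samples. FOS, JUN and JUNB are high with one another and with neutrophil markers (0.59 to 0.80), while NR4A1 and ATF3 are high together (0.54).

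The 8 genes most like FOS over all samples were TREM1 (r 0.86), TNFRSF10C, FOSL2, NFAM1, TNFRSF1A, RASSF2, LILRB3 and KIAA0513, all at 0.86 after rounding. TREM1, TNFRSF1A and LILRB3 are receptors of myeloid cells, and FOSL2 is a FOS relative. The 8 most like the mean z-score of the 10 genes were C7H15orf39 (0.77), TNFRSF1B (0.77), MIDN (0.76), METRNL (0.75), PPP1R9B (0.75), ZBTB7A (0.75), PPP1R18 (0.74) and LOC696748 (0.74).

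**Figure D5:**
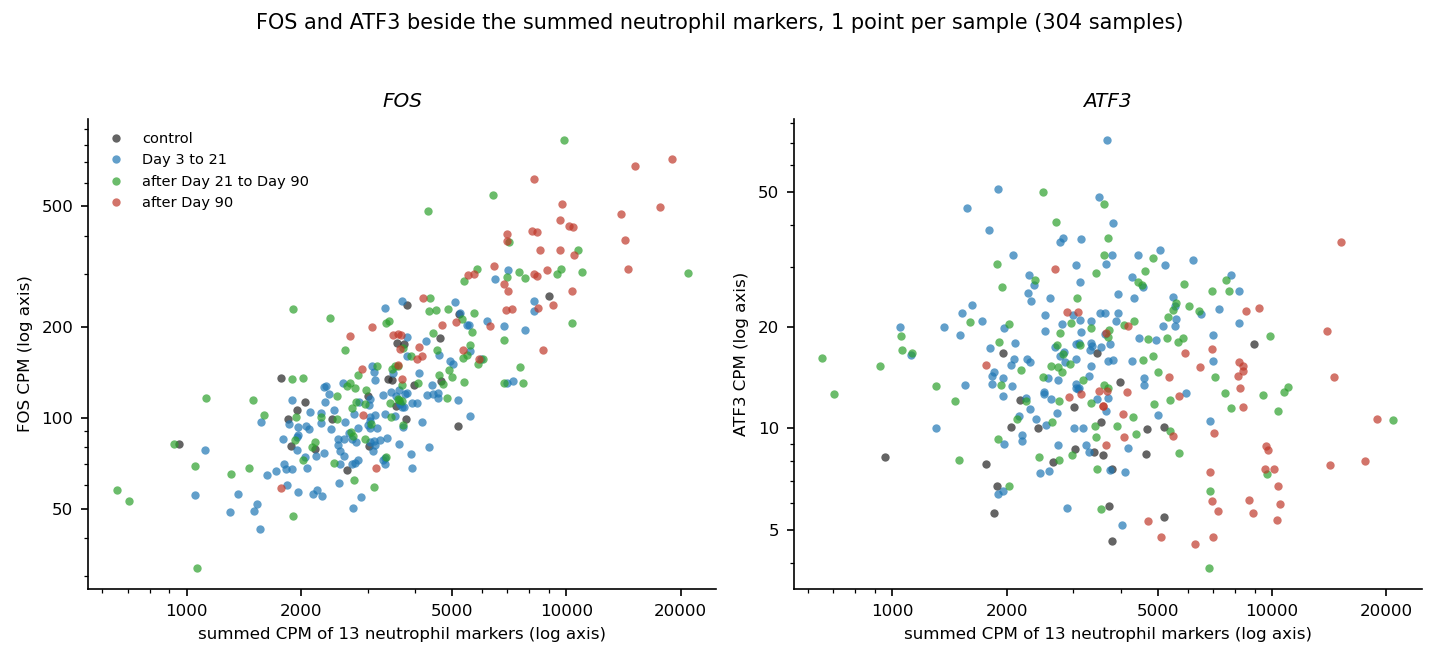
CPM of FOS (left) and ATF3 (right) on the y axis against the summed CPM of 13 neutrophil markers on the x axis, both log axes, with 1 point per sample coloured by time window. FOS goes up along the x axis (r 0.80 after centring on each animal) and ATF3 does not (r -0.18).

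IER2 varied least among the 10. The SD of its log2 CPM around each animal's mean was 0.28, against a median of 0.45 over all genes tested, 0.75 for FOS and 0.77 for EGR3. On Day 90 IER2 was 131.2 to 151.4 CPM in 4 libraries of the high range and 185.4 to 305.7 CPM in 13 numbered 0, without overlap. All 4 of the high range were of 9.8 Gy, and 5 of the 13 were of 10.7 Gy. On Day 40 it was 133.6 ± 30.5 and 148 ± 29.9 CPM in 11 and 13 such libraries (SD), a log2 difference of -0.13 (adjusted p 0.826). In the fit by day over all samples with library range as a covariate, 1.33% and 0.953% of all genes were called for the high range and for 0 against the low range, and none of the 10. JUNB was closest, at -0.45 (adjusted p 0.0286) for the high range.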

How the data were processed

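Whole blood RNA was sequenced by the authors after removal of ribosomal RNA. Per the submitters' processing notes, cutadapt 2.10, STAR 2.7.6a and Subread 2.0.1 were used with Mmul_10. Whether the counting used the strand is not given in the sources used here, so antisense reads cannot be set apart. The authors deposited whole counts of 21070 genes and a second table of upper quartile scaled log2 values, which served as an alternative.

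A gene was kept if 80% of samples or more had 3 counts or more (13751 genes), and fitted with edgeR 4.0.16 (quasi-likelihood, upper quartile scaling) in R 4.3.3, with the animal as a block, since each animal is its own control, and Benjamini-Hochberg adjustment over all genes tested. Calls required an adjusted p no higher than 0.05 and 1.5-fold or more. Within a window, all draws of an animal were added up. A prior count of 2 went into log2 CPM. Draws of 1 animal are repeated measures and were not counted as replicates, except in the fits with library range as a covariate. Those took each of the 304 samples by itself, with the animal as a block, so their adjusted p count repeated draws. The tests were checked on simulated counts: of 200 genes changed 3-fold, 164 of 200 were recovered in the Day 270 design (6 animals) and 200 in the late (14) and early (24) designs, over 13751 genes, with 4, 8 and 0 unchanged genes called.

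Alternatives were DESeq2 1.42.0, TMM scaling, a minimum of 10 counts or no minimum, fits with no replicate block, limma 3.58.1 on the deposited log2 values, library number ranges and leaving out single animals. Outside the 10 genes, up to 3 genes per list and direction were named, and the 8 genes most like FOS and most like the mean of the 10. ZFP36L1 is named as well, chosen after its value was seen. The genes and lists were chosen with earlier results of these data known. HSPA1B, VNN2, FCN1, TRAT1 and PF4 of the lists were not analysed here, and EGR4, NR4A3, NAB2, HSPB1 and MT1X did not pass the filter. Python 3.11.15, pandas 2.3.3 and matplotlib 3.10.9 drew the figures. Survival classes and pleural effusion were not analysed here.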

Additional observations from a re-analysis of the deposited data

Results flagged for a closer look

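In 3 of 60 sets of 1 gene in 1 group of 4 to 10 samples, a single sample stood far from the others, and about 1 in 20 sets would be set apart so by chance. All 3 are in the 9.8 Gy group late in the study. Groups of that size were only those of 9.8 Gy from Day 150 to 270 and of 10.7 Gy on Day 90. Where the 3 fall was therefore largely set by group size and says nothing about dose or time. On Day 240 animal B1503 had 56.2 CPM of FOSB, against 25.2 CPM in the nearest of the other 4 animals, and 11.1 CPM of EGR3, against 2.62 CPM in the nearest. This animal also had the highest FOSB on Day 180 (154 CPM) and on Day 210 (105.4 CPM) among the 6 animals followed to Day 270. On Day 270 animal B1502 had 228 CPM of IER2, against 161 CPM in the nearest of the other 4 animals.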

How the results depend on the processing

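Of the comparisons' counts of called genes among the 10, 55 values under other settings lay within 1.5 times the reported count and 3 did not. The 41 called pairs of gene and day were 17 where only libraries of the control's range were used, which allowed 7 of 15 days (18 of the 41 fall on those days, and Day 30 had 1 call in place of 3 and Day 40 had 2 in place of 1), and 24 in the 6 animals followed to Day 270, an alternative chosen after seeing the data. Doses on single days gave 2 calls with the main edgeR fit and 4 with DESeq2, and the cause was not tested. JUN on Day 60 was added with DESeq2, with TMM and with no minimum of counts. Leaving out 1 animal gave 2 to 2 calls early, 2 to 3 in the medium window, 3 to 6 late (3 without animal B2502), 5 to 5 for late against early and 0 to 0 for the unscheduled draws. The samples are paired by animal. Without the replicate block, 2 genes were called early, 2 in the medium window, 4 late (JUNB lost), 5 for late against early, 37 pairs of gene and day and 0 for the unscheduled draws.

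Some directions turned, none of them of a called value except EGR1 on Day 30. Called higher there, EGR1 had a log2 fold change of -0.52 in the 4 animals with libraries of the control's range. EGR1 in the medium window was -0.22 within the control's library range. IER2 was 0.00616 with DESeq2 in the medium window, and late -0.0200 with at least 10 counts, -0.00711 without the block and -0.23 with library range as a covariate. In irradiated samples only, the dose difference was 0.42 for EGR3 and 0.55 for NR4A1, and the sex difference was 0.00402 for FOSB, 0.0751 for JUN, -0.20 for JUNB, 0.0196 for EGR2 and 0.0366 for NR4A1. Leaving out 1 animal, IER2 ran from -0.0568 to 0.00325 in the medium window and from -0.0289 to 0.0468 late. In the unscheduled draws, FOS ran from -0.38 to 0.0409, FOSB from -0.37 to 0.0162, NR4A1 from -0.29 to 0.0925 and IER2 from -0.0347 to 0.24. Late NR4A1 reached -0.62 and was called without animal B1004 or B1502, and EGR1 in the medium window was called without B1006, B1504, B2005 or B2504. Late against early within libraries numbered 0 could not be fitted, and the few counts of EGR1 and EGR2 limit their precision.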
